A study of Mus musculus with 6 samples.

Results

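Solute carriers are membrane proteins that move amino acids, sugars, nucleosides, metals, ions and other small molecules across the plasma membrane, the Golgi, lysosomes and mitochondria. Their family numbers group relatives by sequence. Most Slc30 proteins move zinc out of the cytosol and Slc39 proteins move it in, and most Slc25 proteins sit in the inner membrane of mitochondria. Macrophages use them to feed their metabolism, to withhold metals from microbes and to load phagosomes and lysosomes. They were examined here in RAW 264.7 cells, a mouse macrophage-like line, exposed for 2 h to lipopolysaccharide (LPS, 100 ng/ml), a component of the outer membrane of Gram-negative bacteria, together with LPS-binding protein (LBP, 100 pM), which hands LPS to its receptor. The members were all genes whose platform symbol begins with Slc, apart from Slc2a1, Slc2a3, Slc16a3, Slc7a2, Slc7a11, Slc40a1, Slc11a1 and Slc11a2. They came to 190 genes on 258 probes, of 10698 genes named by the platform.

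Each of 6 2-colour arrays set treated RNA against RNA of untreated cells of the same line. On 3 arrays the treated RNA carried Cy5 and on 3 it carried Cy3. The labels number both kinds as sets 1, 2 and 3 without tying a set to a culture of its own, so the p-values measure the spread between these sets, which may be technical. Values below are log2 ratios of treated over untreated cells, with array ratios turned to that direction and the arrays of a set averaged (mean ± SD, n = 3 sets). Cy5 over Cy3 is the likely direction of the deposited ratios, from the channels in the labels, and 10 of 10 genes that LPS is known to induce were positive in that direction on every array. A ratio gives no level, so carriers cannot be ranked by abundance, and fewer expressing cells and less RNA per cell cannot be told apart. For the same reason the macrophage identity of the cells could not be checked from levels. Of 8 macrophage markers tested, Adgre1 and Spi1 were higher and Csf1r and Fcgr3 lower, and 0 of 7 markers of other cells passed the test.

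A gene was tested when a probe was measured on all 6 arrays, which held for 168 of the 190 carriers. Of the other 22, 2 (Slc5a4a and Slc6a6) had no value and 20 had values on 1 to 5 arrays. By limma with Benjamini-Hochberg adjustment over all 11231 features, at an adjusted p under 0.05, 30 carriers (17.9%) passed, against 14.8% of all features. Of these, 14 were higher, against 7.35% of all features, and 16 were lower, against 7.45%. The carriers as a whole were therefore close to the background in both directions. The median carrier ratio was -0.02 and that of all features 0.00. Over the alternative settings the carrier median ranged from -0.026 to 0.018, so its sign is not settled. Near 0 lay most of both: 81.5% of the carriers and 83.8% of the features lay within 0.2 of no change. Past the threshold, 2 carriers were higher by over 2-fold, Slc31a2 and Slco1c1, and 0 were lower by that much, against 123 and 10 features in all.

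The calls differed in how often they held with arrays left out. A lost call does not by itself show that 1 array carried it, since fewer arrays remain. Slc25a46, for example, was lost in all 9 repeats while its value stayed between -0.19 and -0.17. With each set and each array left out in turn, 9 repeats in all, 8 of the 30 carriers passed every time: Slc31a2, Slco1c1, Slc15a3, Slc20a1, Slc25a33, Slc39a13, Slc37a2 and Slc5a3. The other 22 missed the threshold at least once. Without set 3, 17 of the 30 were lost, and the share called fell to 7.74% of the carriers and 5.01% of all features. Without the array of set 2 with treated RNA in Cy5, 16 were lost. Without the Cy3-treated array of set 1 or set 2, 13 and 12 were lost. When an array is left out, its set rests on the remaining array and the dye effect of that set no longer cancels.

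**Figure D1:**
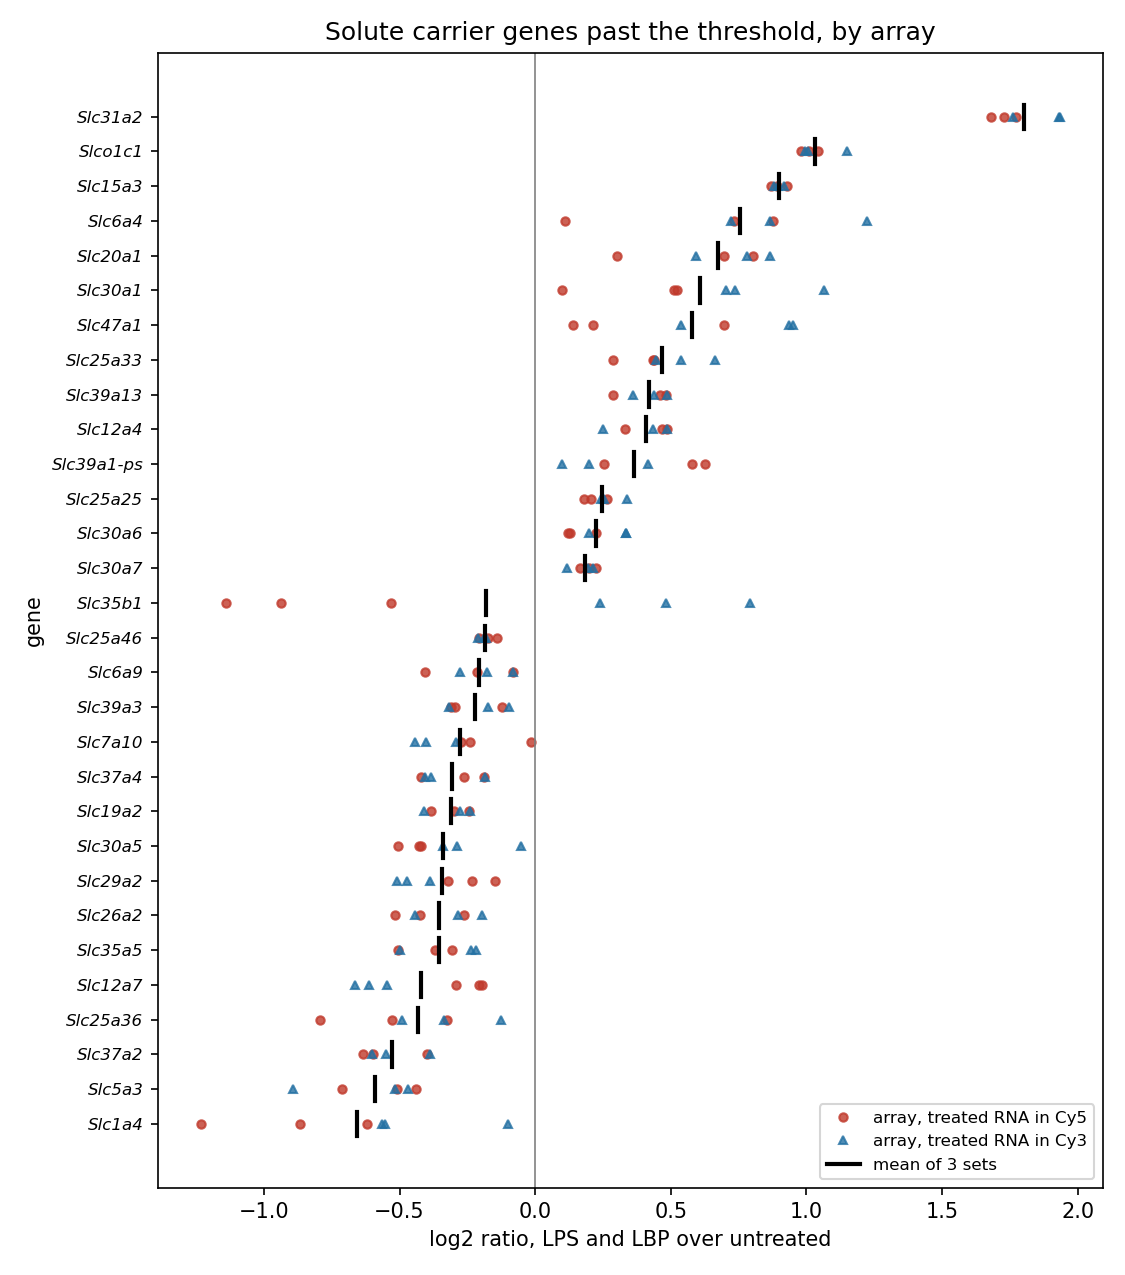
Log2 ratio of treated over untreated cells (x axis) of the 30 carriers past the threshold (y axis), on 3 arrays with treated RNA in Cy5 (circles) and 3 with treated RNA in Cy3 (triangles); bars mark the mean of 3 sets. Slc31a2 stands highest, on every array between 1.68 and 1.93, and Slc35b1 is the carrier whose arrays lie on both sides of 0.

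Metal carriers held the most calls of any class. Of 16 tested, 5 were higher and 2 lower, or 43.8%, with a class median of 0.02, from -0.013 to 0.12 over the alternative settings. The copper-transporter relative Slc31a2 rose by 1.80 ± 0.05 (3.48-fold), and the zinc exporter Slc30a1 rose by 0.61 ± 0.02 (1.52-fold). The zinc carriers Slc39a13, Slc30a6 and Slc30a7 rose by less, while Slc30a5 and Slc39a3 fell. The metal count fell from 7 to 2 without the Cy3-treated array of set 1, to 3 without set 3 or without the Cy5-treated array of set 2, and to 4 without set 1, without the Cy5-treated array of set 1, or without the Cy3-treated array of set 2 or set 3. No test compared the classes with each other.

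Promoter sequences of 4 metal carriers are shown because their transcripts moved in opposite directions while each window holds a match, and because some zinc-responsive genes carry metal response elements, the sites bound by the zinc-sensing factor MTF1. Each is the 250 bases upstream of the RefSeq start in GRCm38.p6, read along the gene. Capitals mark matches to the motifs searched, on both strands and with overlapping matches counted. In these windows they are TGCACNC and TGCGCNC, the core of metal response elements, and the E-box CACGTG. The windows lie at chr4:62286179-62286428 (plus strand) for Slc31a2, chr1:191906531-191906780 (plus strand) for Slc30a1, chr13:100833428-100833677 (minus strand) for Slc30a5 and chr10:81037316-81037565 (minus strand) for Slc39a3.
Slc31a2: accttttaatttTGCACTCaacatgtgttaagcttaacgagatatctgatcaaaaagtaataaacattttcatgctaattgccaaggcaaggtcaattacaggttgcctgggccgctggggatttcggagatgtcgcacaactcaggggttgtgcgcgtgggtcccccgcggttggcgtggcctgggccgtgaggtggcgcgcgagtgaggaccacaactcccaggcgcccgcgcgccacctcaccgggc
Slc30a1: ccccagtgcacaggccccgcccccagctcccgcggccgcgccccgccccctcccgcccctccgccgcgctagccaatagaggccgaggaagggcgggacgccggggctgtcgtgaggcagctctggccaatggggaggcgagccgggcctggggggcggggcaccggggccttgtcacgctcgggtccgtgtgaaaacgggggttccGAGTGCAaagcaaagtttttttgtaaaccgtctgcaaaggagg
Slc30a5: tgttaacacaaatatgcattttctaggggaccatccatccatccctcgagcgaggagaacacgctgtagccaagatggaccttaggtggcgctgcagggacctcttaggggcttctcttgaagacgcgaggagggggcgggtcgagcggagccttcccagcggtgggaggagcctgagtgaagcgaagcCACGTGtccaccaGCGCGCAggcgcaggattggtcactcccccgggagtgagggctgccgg
Slc39a3: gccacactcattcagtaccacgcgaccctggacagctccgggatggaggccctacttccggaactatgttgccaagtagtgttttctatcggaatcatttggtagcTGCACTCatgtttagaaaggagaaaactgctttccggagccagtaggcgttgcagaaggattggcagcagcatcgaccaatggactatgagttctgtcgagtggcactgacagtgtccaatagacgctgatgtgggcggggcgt

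These 4 windows were chosen because each holds a metal response core, in both risers and both fallers. The windows of the other metal carriers that passed, Slc39a13, Slc30a6 and Slc30a7, held 0 matches to any motif searched. In Slc31a2 it was TGCACTC, starting 238 bases before the start, and in Slc30a1 the same letters on the other strand, starting 43 bases before it. Slc39a3 held TGCACTC at 144 bases and Slc30a5 held a TGCGCNC match on the other strand at 48 bases. Some genes have several starts, and a gene was counted when the window of any of them held a match. Among carriers with a promoter window, a core of either kind stood in 6 of 11 that were higher, 6 of 14 that were lower and 43 of 133 tested, against 23.8% of all genes in the table. Slc6a9, counted among the lower ones, had 0 matches in the first of its 3 windows. A match is a string of letters and was not tested for binding.

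Slc31a2 (NCBI gene 20530) encodes a protein of the copper transporter family found mainly on endosomes and lysosomes, where it takes part in moving copper. Its ratios were 1.68, 1.77 and 1.73 on the Cy5-treated arrays of sets 1, 2 and 3, and 1.93, 1.93 and 1.76 on the Cy3-treated arrays. All 6 arrays were high and close together, and the adjusted p was 1.07e-05 (limma). It passed under all 18 alternative settings that tested the gene against no change. Its neighbour Zfp37 was at 0.12 ± 0.15 (limma adjusted p = 0.314).

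Slc30a1 (ZnT1) exports zinc across the plasma membrane. Its ratios were 0.10, 0.51 and 0.52 on the Cy5-treated arrays and 1.06, 0.73 and 0.70 on the Cy3-treated arrays, with an adjusted p of 0.000433 (limma). Every array was above 0, but the 2 orientations did not overlap, with means of 0.38 and 0.83. Its 2 probes also differed, at 0.47 and 0.75. Without the Cy3-treated array of set 1 its value was 0.44 and its adjusted p 0.122.

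Zinc carriers of the secretory pathway went both ways. Slc39a13, a zinc carrier of the Golgi and intracellular vesicles, rose by 0.42 ± 0.08 (limma adjusted p = 0.0034), with arrays from 0.29 to 0.49. Slc30a6 and Slc30a7, members of the Slc30 family found at the Golgi, rose by 0.22 ± 0.06 and 0.19 ± 0.04 (limma adjusted p = 0.0281 and 0.0446). Slc30a5 forms a heterodimer with the Slc30a6 protein, and its transcript fell by 0.34 ± 0.09 (limma adjusted p = 0.00865), with every array below 0. Slc39a3, a zinc importer of the plasma membrane, fell by 0.22 ± 0.09 (limma adjusted p = 0.0385). The calls of Slc30a6, Slc30a7 and Slc39a3 were lost in 7, 8 and 8 of the 9 repeats with a set or array left out, and that of Slc30a5 in 3. The importers Slc39a8 and Slc39a9 stood at -0.01 ± 0.12 and 0.19 ± 0.16 and did not pass.

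**Figure D2:**
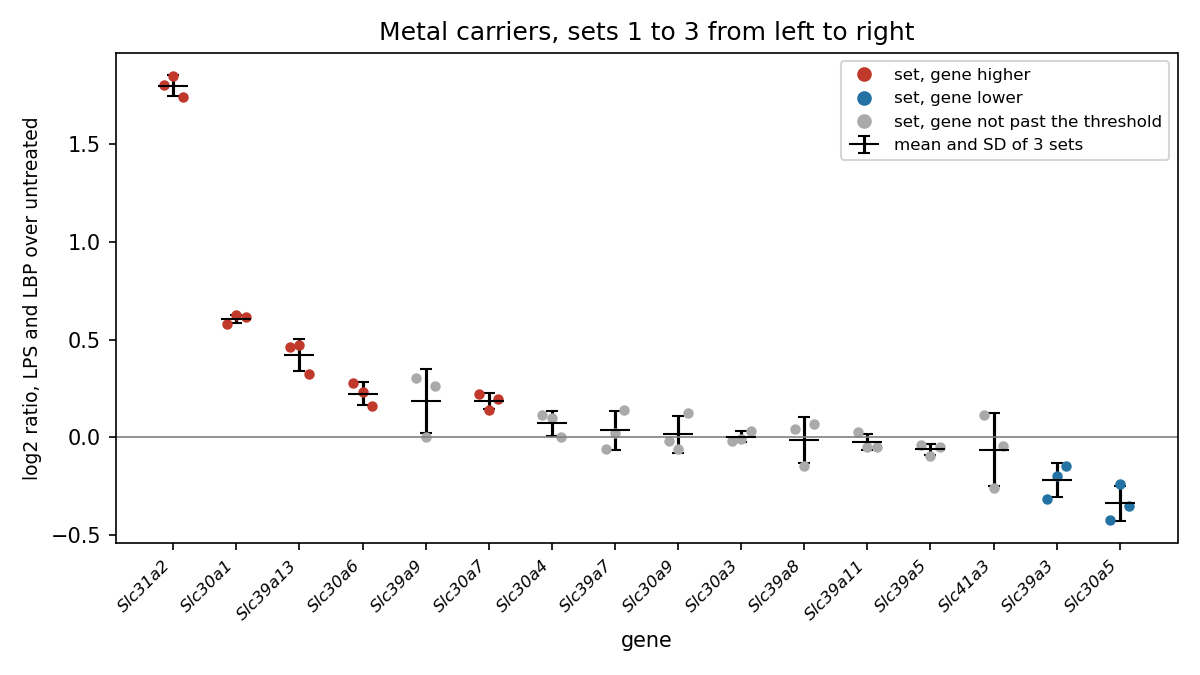
Log2 ratio of treated over untreated cells (y axis) of the 16 metal carriers tested (x axis), with a point for each of 3 sets and the mean ± SD. Slc31a2 lies near 1.80 in all sets, Slc30a1 near 0.61, and Slc30a5 and Slc39a3 lie below 0 in all sets.

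Among 8 tested genes of zinc and copper buffering, which bind these metals inside the cell, 1 passed, Mt2. That share, 12.5%, was no higher than the 14.8% of all features. Mt2, a metallothionein, rose by 0.89 ± 0.19 (limma adjusted p = 0.000851), with sets at 1.05, 0.95 and 0.68. The median of the list was 0.04.

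Amino acid and peptide carriers showed 1 gene higher and 3 lower of 28 tested (14.3%), with a median of 0.01, from -0.052 to 0.067 over the alternative settings. Slc15a3 rose by 0.90 ± 0.01 (1.86-fold) and Slc1a4 fell by 0.66 ± 0.07 (1.58-fold), and smaller falls were seen for Slc7a10 and Slc6a9. Without the Cy5-treated array of set 2 the count was 1. Without set 3, or without any 1 of the Cy3-treated arrays, it was 2.

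Slc15a3 (NCBI gene 65221), also known as PHT2, is a proton-coupled carrier of histidine and small peptides on endolysosomes, including fragments of bacterial cell walls. Its ratios were 0.89, 0.93 and 0.87 on the Cy5-treated arrays and 0.92, 0.88 and 0.90 on the Cy3-treated arrays, with an adjusted p of 8.2e-05 (limma). The 6 arrays were almost level, its 2 probes gave 0.87 and 0.92, and it passed under the same 18 settings. The neighbouring gene Cd6 was at 0.03 ± 0.11. Its relative Slc15a2 had 2 complete probes that differed more than the complete probes of any other tested carrier, at -0.06 and 0.26.

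Slc1a4 (ASCT1) exchanges alanine, serine and other small neutral amino acids at the plasma membrane. Its complete probe gave -0.62, -1.23 and -0.87 on the Cy5-treated arrays and -0.55, -0.10 and -0.57 on the Cy3-treated arrays (limma adjusted p = 0.000456). All arrays were below 0, and the Cy5-treated arrays, each lower than every Cy3-treated one, averaged -0.91 against -0.41. A second probe, measured on 5 arrays and therefore not tested, pointed the other way on 4 of them. It gave 0.62, 0.17 and 0.18 on the Cy5-treated arrays and -0.01 and 0.17 on the Cy3-treated arrays of sets 2 and 3. With that probe averaged in, the gene was at -0.28 (limma adjusted p = 0.0176), and with exact zeros kept as values it was at -0.23 and did not pass. Without the Cy5-treated array of set 2 it was at -0.47 (limma adjusted p = 0.16).

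Slc7a10 (Asc-1), which exchanges small neutral amino acids including D-serine, fell by 0.28 ± 0.05 (limma adjusted p = 0.0109). Slc6a9 (GlyT1), a glycine carrier, fell by 0.21 ± 0.07 (limma adjusted p = 0.039). Their calls were lost in 6 and 9 of the 9 repeats with a set or array left out. Several carriers of large neutral, cationic and glutamine-type amino acids did not pass. The heavy chain Slc3a2 stood at 0.17 ± 0.02 (limma adjusted p = 0.0507) and Slc7a7 at 0.22 ± 0.13, and neither passed. Slc3a2 averaged 0.32 on the Cy5-treated arrays and 0.02 on the Cy3-treated arrays. Its adjusted p was 0.0352 with exact zeros kept as values and 0.0738 with incomplete probes kept (limma). Slc43a3, placed in this class by its symbol and not by a known substrate, was at 0.15 ± 0.07 and did not pass. Slc7a5, the light-chain partner of Slc3a2 for leucine, was at 0.08 ± 0.12. The glutamine carrier Slc1a5 was at 0.06 ± 0.09 and the arginine carrier Slc7a1 at -0.07 ± 0.21. A second Slc7a1 probe, measured on 4 arrays, gave -2.90, -2.02 and -1.56 on the Cy5-treated arrays and 2.18 on the Cy3-treated array of set 2. With it averaged in, Slc7a1 was at -0.39 (limma adjusted p = 0.0843). That probe was higher in the Cy3 channel on all 4 arrays. Only set 2 had its value in both orientations, so a dye effect does not cancel in this mean.

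Genes of the amino acid response, the programme that the factor ATF4 drives when amino acids run short, were listed beside these carriers. Of 18 tested, 5 were higher and 0 lower (27.8%, against 14.8% of all features), and the list's median was 0.12. The 5 were the stress regulator Nupr1 (1.55 ± 0.11) and the transcription factors Atf3 (0.99 ± 0.24), Cebpb (0.58 ± 0.04), Ddit3 (0.48 ± 0.09) and Atf5 (0.34 ± 0.12). Several of these factors also answer to other signals. Atf4 itself, at 0.16, did not pass, nor did the asparagine synthetase gene Asns at 0.16, Chac1 at 0.12, or the serine and one-carbon genes Phgdh at -0.01, Psph at -0.09, Shmt2 at 0.02 and Mthfd2 at 0.09.

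Sugar carriers showed 0 genes higher and 2 lower of 8 tested (25%), with a median of -0.08. Both genes that fell belong to the Slc37 family, which exchanges sugar phosphates for phosphate across the endoplasmic reticulum. Slc37a2, a member abundant in macrophages, fell by 0.53 ± 0.12 (1.44-fold, limma adjusted p = 0.00231). Its ratios were -0.60, -0.64 and -0.40 on the Cy5-treated arrays and -0.55, -0.60 and -0.39 on the Cy3-treated arrays. All arrays were low, the orientations overlapped, and the call held with any set or array left out, though not with exact zeros kept as values (adjusted p = 0.0506 by limma). Slc37a4, the glucose-6-phosphate carrier of the endoplasmic reticulum, fell by 0.31 ± 0.02 (limma adjusted p = 0.00636). Its call was lost without set 3 (-0.32, adjusted p = 0.0813 by limma) and without the Cy5-treated array of set 2 (-0.27, adjusted p = 0.132 by limma), which left a sugar count of 1. Their relative Slc37a3 was at 0.10 ± 0.04 and the intracellular hexose carrier Slc2a8 at -0.16 ± 0.05, and neither passed. The neighbour of Slc37a2, Tmem218, fell by 0.44 ± 0.01 (limma adjusted p = 0.00151).

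The 5 nucleoside carriers gave 0 higher and 1 lower (20%), with a median of -0.05. Slc29a2 (ENT2), an equilibrative carrier of nucleosides and nucleobases, fell by 0.35 ± 0.06 (limma adjusted p = 0.00562). Its ratios were -0.32, -0.15 and -0.23 on the Cy5-treated arrays and -0.51, -0.47 and -0.39 on the Cy3-treated arrays. All 6 were below 0, and the Cy3-treated arrays were each lower than every Cy5-treated one. Without set 3 its value was -0.36 and its adjusted p 0.0656 (limma), and without the Cy3-treated array of set 2 they were -0.29 and 0.101, so the class then held 0 calls. Its close relative Slc29a1 (ENT1) was at -0.02 ± 0.02. Without set 2 the class held 2 calls. Of 13 tested genes of nucleoside metabolism, the kinases Tk1, Dck and Tk2, which phosphorylate imported nucleosides, fell by 0.51 ± 0.04, 0.33 ± 0.10 and 0.19 ± 0.05, and 0 rose. These 3 are 23.1% of the list, against 14.8% of all features called in either direction and 7.45% lower.

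**Figure D3:**
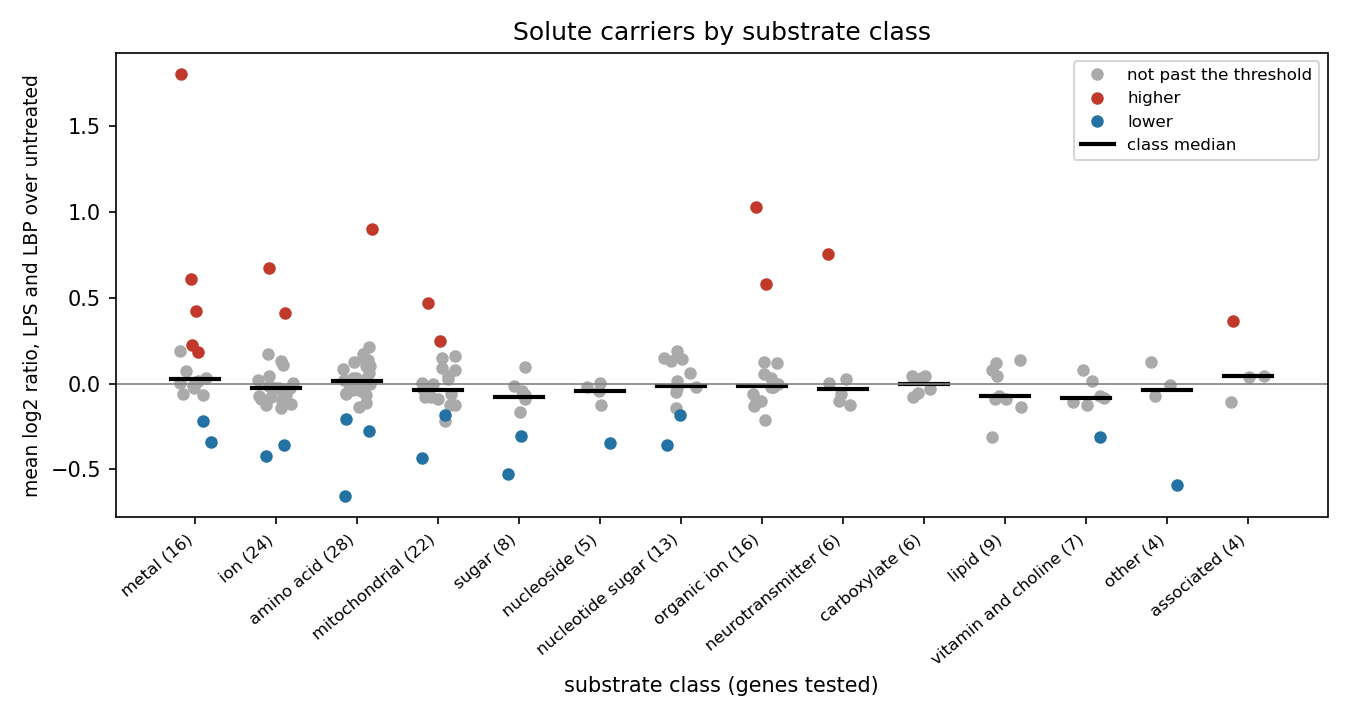
Mean log2 ratio of treated over untreated cells (y axis) of each of the 168 carriers tested, by substrate class (x axis, number tested in brackets); bars mark class medians and colours the test result. Most carriers of every class lie near 0. The metal class holds 5 higher and 2 lower of 16. Past the threshold, the sugar, nucleoside, nucleotide sugar, vitamin and choline, and other classes hold lower genes and no higher ones. The nucleotide sugar genes coloured as lower include Slc35b1, for which no direction is given.

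Ion carriers showed 2 genes higher and 2 lower of 24 tested (16.7%), with a median of -0.03, from -0.073 to 0.031 over the alternative settings. Slc20a1 (Pit1), a sodium-phosphate cotransporter that also serves as a retrovirus receptor, rose by 0.67 ± 0.11 (1.60-fold, limma adjusted p = 0.000741). Its ratios were 0.70, 0.30 and 0.80 on the Cy5-treated arrays and 0.59, 0.87 and 0.78 on the Cy3-treated arrays. The array of set 2 with treated RNA in Cy5 was the low one, and the call held without it. Its family partner Slc20a2 (Pit2) was at -0.03 ± 0.12, and its neighbour Chchd5 fell by 0.30 ± 0.03 (limma adjusted p = 0.00711).

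The potassium-chloride cotransporters, which let cells shed salt and water, moved in opposite directions. Slc12a4 (KCC1) rose by 0.41 ± 0.10 (limma adjusted p = 0.00503) and was between 0.25 and 0.49 on every array. Slc12a7 (KCC4) fell by 0.42 ± 0.04 (limma adjusted p = 0.00212). Its ratios were -0.21, -0.20 and -0.29 on the Cy5-treated arrays and -0.55, -0.66 and -0.61 on the Cy3-treated arrays, so that every array was below 0 but the orientations did not overlap. The call of Slc12a4 was lost without set 3 (0.39, adjusted p = 0.0766 by limma). That of Slc12a7 was lost without the Cy3-treated array of set 1 (-0.36, adjusted p = 0.0563) or of set 2 (-0.34, adjusted p = 0.0625), by limma. Slc26a2, a sulfate carrier, fell by 0.36 ± 0.08 (limma adjusted p = 0.00629), with 2 probes at -0.31 and -0.40. It did not pass without the Cy5-treated array of set 2 (-0.30, adjusted p = 0.125 by limma). The sodium-proton exchanger Slc9a4 was at 0.17 ± 0.04 (limma adjusted p = 0.0573) and the bicarbonate carrier Slc4a8 at 0.13 ± 0.04, and neither passed.

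Carriers of the mitochondrial Slc25 family, which includes the peroxisomal Slc25a17, showed 2 genes higher and 2 lower of 22 tested (18.2%), with a median of -0.04, from -0.074 to 0.029 over the alternative settings. A pair of related pyrimidine nucleotide carriers, which exchange nucleotides across the inner membrane, moved apart. Slc25a33 rose by 0.47 ± 0.09 (1.38-fold, limma adjusted p = 0.00257), with ratios of 0.44, 0.44 and 0.29 on the Cy5-treated arrays and 0.54, 0.66 and 0.45 on the Cy3-treated arrays. It passed under the same 18 settings but not in the test against a 1.5-fold change, which 0 mitochondrial carriers passed. Slc25a36 fell by 0.43 ± 0.12 (1.35-fold, limma adjusted p = 0.00517), with ratios of -0.53, -0.33 and -0.79 on the Cy5-treated arrays and -0.13, -0.49 and -0.34 on the Cy3-treated arrays. All arrays of each gene kept its sign, and no array of Slc25a36 overlapped those of Slc25a33. The call of Slc25a36 was lost without set 3 (-0.37, adjusted p = 0.0601 by limma) and without the Cy5-treated array of set 1 (-0.37, adjusted p = 0.0812 by limma).

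The remaining mitochondrial changes were small. Slc25a25, a carrier that exchanges ATP-magnesium for phosphate, rose by 0.25 ± 0.05 (limma adjusted p = 0.0173). Slc25a46, a family member of the outer membrane that takes part in mitochondrial dynamics, fell by 0.18 ± 0.02 (limma adjusted p = 0.0402). Their calls were lost in 6 and 9 of the 9 repeats with a set or array left out, and without set 3 the class held 1 call. It held 2 without the Cy3-treated array of set 1 or set 2 and without the Cy5-treated array of set 1 or set 2. The glutamate carrier Slc25a18 was at -0.22 ± 0.12 (limma adjusted p = 0.0574) and the iron carrier Slc25a37 at -0.13 ± 0.07. Another member, Slc25a14, was at 0.16 ± 0.09, and none of these passed.

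Carriers of organic ions and transmitters gave 3 further genes that rose. Of 16 organic ion carriers 2 were higher and 0 lower (12.5%), and of 6 neurotransmitter carriers 1 was higher and 0 lower (16.7%). Slco1c1 (NCBI gene 58807) carries thyroid hormones and is best known from brain capillaries. It rose by 1.03 ± 0.06 (2.04-fold, limma adjusted p = 6.48e-05), with ratios of 1.01, 1.04 and 0.98 on the Cy5-treated arrays and 0.99, 1.15 and 1.01 on the Cy3-treated arrays. The 6 arrays were level, and the neighbours Pde3a and Slco1b2 were at -0.01 ± 0.17 and -0.02 ± 0.11. A second probe had a value on 1 array, of 0.79. With its exact zeros kept as values the gene was at 0.58 (limma adjusted p = 0.0557).

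Slc6a4, the serotonin transporter, rose by 0.75 ± 0.08 (1.69-fold, limma adjusted p = 0.00031), with 2 probes at 0.68 and 0.83. Its ratios were 0.88, 0.11 and 0.73 on the Cy5-treated arrays and 0.72, 1.22 and 0.87 on the Cy3-treated arrays. Both arrays of set 2 stood apart, low in one orientation and high in the other, and they averaged 0.67. Without the Cy3-treated array of set 2 the value was 0.57 (limma adjusted p = 0.107). Slc47a1 (MATE1), which exports organic cations in exchange for protons, rose by 0.58 ± 0.24 (1.49-fold, limma adjusted p = 0.00862). Its ratios were 0.14, 0.21 and 0.69 on the Cy5-treated arrays and 0.54, 0.95 and 0.94 on the Cy3-treated arrays. The arrays were all above 0 but widely spread. Its call was lost without set 3 (0.46, adjusted p = 0.0602), and without the Cy5-treated array of set 2 (0.70, adjusted p = 0.054) or the Cy3-treated array of set 1 (0.51, adjusted p = 0.117) or set 2 (0.45, adjusted p = 0.119), by limma.

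Among the other classes the calls were lower, apart from Slc39a1-ps. Slc5a3, a sodium-coupled carrier of myo-inositol, an osmolyte and phospholipid precursor, fell by 0.59 ± 0.18 (1.51-fold, limma adjusted p = 0.00388). Its ratios were -0.44, -0.71 and -0.51 on the Cy5-treated arrays and -0.52, -0.89 and -0.47 on the Cy3-treated arrays. Set 2 was the lowest in both orientations, and the call held without it. It was lost with exact zeros kept as values (limma adjusted p = 0.0768) and on the Cy3-treated arrays alone (limma adjusted p = 0.0518). Mrps6, which neighbours Slc5a3, fell by 0.29 ± 0.09 (limma adjusted p = 0.0162), and the array's table does not say whether the probes separate them. Slc19a2, a thiamine carrier, fell by 0.31 ± 0.05 (limma adjusted p = 0.00731). It was lost without set 3 (-0.33, adjusted p = 0.0724 by limma) and without the Cy5-treated array of set 2 (-0.29, adjusted p = 0.104 by limma). Slc39a1-ps, a pseudogene named after a zinc carrier, was at 0.36 ± 0.15 (limma adjusted p = 0.0153). Its call is uncertain, since a pseudogene probe may also bind the transcript of its parent gene, and it was lost in 4 of the 9 repeats.

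Of 13 members of the Slc35 family, classed here together as nucleotide sugar carriers, 0 were higher and 2 lower (15.4%). Nucleotide sugar carriers supply the Golgi and endoplasmic reticulum for glycosylation, but the class also holds other carriers, such as Slc35b1. Slc35a5 fell by 0.36 ± 0.13 (limma adjusted p = 0.0122), with every array below 0. It was lost without set 3 (-0.28, adjusted p = 0.11 by limma) and without the Cy5-treated array of set 2 (-0.33, adjusted p = 0.116 by limma). Slc35b1, the ATP carrier of the endoplasmic reticulum, had a set mean of -0.18 ± 0.04 (limma adjusted p = 0.0467) that its arrays do not share. It was at -0.94, -1.14 and -0.53 on the Cy5-treated arrays and 0.48, 0.79 and 0.24 on the Cy3-treated arrays, and in a fit to the 6 arrays with a dye term and the set as a replicate block its adjusted p was 0.296 (limma). No direction is given for it. The 6 carboxylate carriers and 9 lipid carriers gave 0 calls. Slc16a1 (MCT1), a lactate carrier, was at -0.03 ± 0.08, and the fatty acid carrier Slc27a3 at -0.31 ± 0.23 (limma adjusted p = 0.0629).

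**Figure D4:**
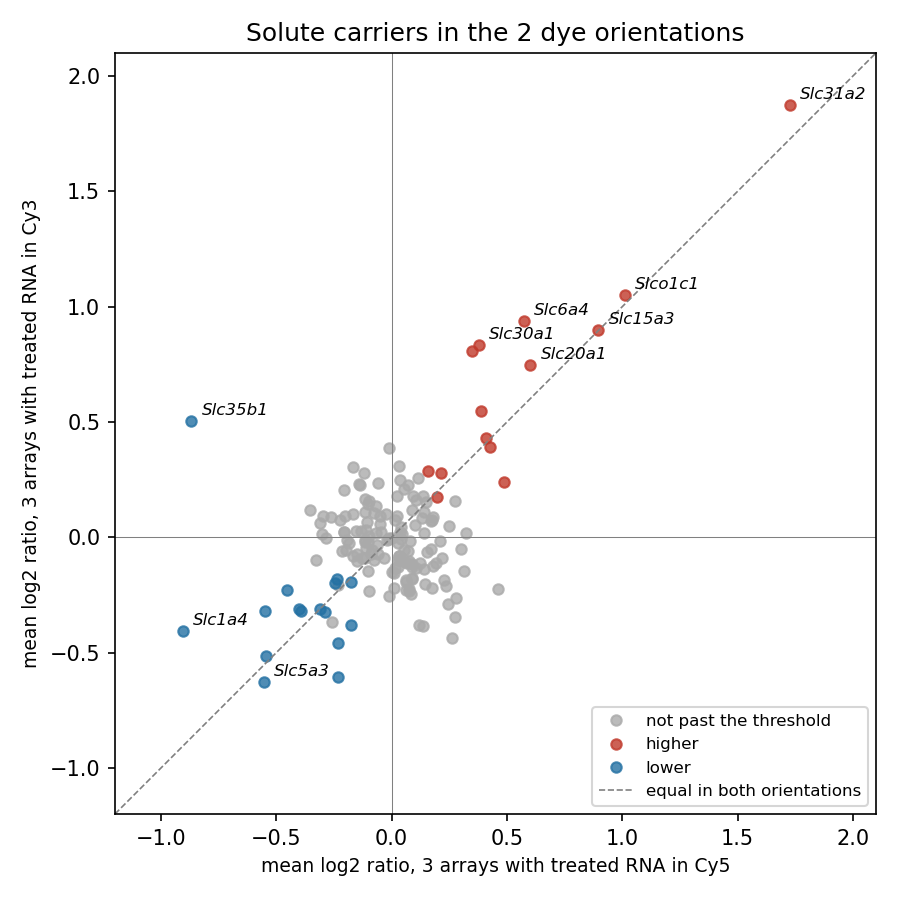
Mean log2 ratio of treated over untreated cells on 3 arrays with treated RNA in Cy5 (x axis) against that on 3 arrays with treated RNA in Cy3 (y axis), for the 168 carriers tested; the dashed line marks equal values. Slc31a2 and Slco1c1 lie near the line, Slc1a4 and Slc30a1 off it, and Slc35b1 lies at -0.87 and 0.50.

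The dye orientations were compared for all carriers. The same sign on 6 arrays was found for 37 of the 168 carriers (22%), against 19.1% of all features. Of the 14 that passed as higher, 14 had it, as did 15 of the 16 that passed as lower, the exception being Slc35b1. These calls were made on the same arrays, so their shared sign is no separate check of the orientations. Between orientations, 23 of the 168 carriers (13.7%) had opposite signs on every array, against 13.1% of all features. A limma test of the difference between orientations, added after the data were seen, passed 0 features after adjustment. By the same test, 33 of the 168 carriers and 2477 of the 11231 features had an unadjusted p under 0.05. The count of 0 therefore does not show that the orientations were alike. For Slc35b1 the unadjusted p was 0.00845 and the adjusted p 0.174.

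Within 5 of the 43 families tested, members passed in both directions: Slc6, Slc12, Slc25, Slc30 and Slc39. In the Slc30 family 3 members rose and 1 fell of 7, and in the Slc39 family, the pseudogene included, 2 were higher and 1 lower of 8. Other motifs in the promoter windows were also counted, again over all starts of a gene. The NF-kB motif, the site of a factor that LPS activates, matched in 0 of 11 carriers that were higher, 3 of 14 that were lower (Slc7a10, Slc37a4 and Slc19a2) and 17 of 133 tested, against 8.23% of all genes. The AP-1 motif TGANTCA matched in 12 of 133 and 7.82% of all genes, the E-box CACGTG in 24 of 133 and 6.86%, the CRE motif TGACGTCA in 2 and 1.77%, and the ATF4 composite TGATGNAA in 3 and 3.91%. These windows cover 25 of the 30 carriers past the threshold.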

How the data were processed

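Total RNA of RAW 264.7 cells was compared on 6 2-colour arrays. The authors deposited 1 table of log2 ratios for 16281 probes. The log2 scale was inferred from the values: 87.3% to 92.8% of each array's non-zero values are log10 ratios of few decimals multiplied by log2 of 10. How background and dyes were corrected, and with which scanner, is not stated. No spot intensities were used here. Signal over background is thus unknown, and precision is limited by the number of arrays. Array medians lay between 0.00 and 0.02.

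Exact zeros, 9.12% to 12.4% of an array, were taken as missing, which left 13224 probes measured on all 6 arrays. Probes were named through the platform annotation, which gives 1 symbol for 13738 probes, several for 52 and none for 2491. Complete probes of a gene were averaged (28 carriers had several). Ratios of the arrays with treated RNA in Cy3 were multiplied by -1, and the arrays of a set number were averaged, giving n = 3. The mean was tested against 0, two-sided, by the lmFit and eBayes functions of limma 3.58.1 (R 4.3.3, prior degrees of freedom 4.16) and Benjamini-Hochberg adjustment over 11231 features at 0.05. The script was tested on simulated data. Set numbers were taken as pairing arrays from the labels. Before signs were turned, deviations of the arrays of a set correlated across features with r of 0.40, 0.43 and 0.14. No p-value is given since features are not independent. RNA shared by the arrays of a set would swap channels between them, so a positive r before turning does not show shared RNA. The consensus correlation of the turned arrays of a set was near 0, at -0.055.

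The members, substrate classes and other gene lists were chosen with earlier results of these data known, and 2 class assignments (Slc6a20b to amino acids, Slc35g3 to nucleotide sugars) were corrected after values were seen. Classes were assigned by gene symbol, so a class can hold members that carry other substrates. Named carriers are all those past the threshold, with array values for those of largest change. Per class, up to 3 others of largest change with an unadjusted p under 0.05 (limma) were also chosen. Of these others, Slc35a2 (0.14), Slc10a7 (-0.14), Slc35f6 (-0.14) and Slc22a5 (-0.21) are given only here, and none passed. Slc20a2, Slc7a5, Slc1a5, Slc7a1, Slc29a1, Slc16a1, Slc37a3 and Slc39a8 were added after their values were seen. Promoters are RefSeq sequences of GRCm38.p6, matched by symbol for 133 of 168 tested carriers. Alternatives covered zeros, incomplete probes, separate probes, scaling, dye and set terms, single orientations, left-out sets and arrays, a robust fit and a test against a 1.5-fold change.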

Additional observations from a re-analysis of the deposited data

Results flagged for a closer look

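Among the carriers named, 4 had opposite signs in the 2 dye orientations on every array. Slc35b1 averaged -0.87 with the treated RNA in Cy5 and 0.50 with it in Cy3 (unadjusted p = 0.00845 and adjusted p = 0.174 for the difference, limma). Slc9a3, a sodium-proton exchanger, averaged -0.36 and 0.12. The phosphate carrier Slc20a2 averaged 0.15 and -0.20, and the nucleoside carrier Slc29a1 averaged -0.11 and 0.065. None of these differences passed the adjusted test, and the part of the dye in them was not tested. Among the 4, Slc35b1 passed the test of the set mean.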

How the results depend on the processing

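The counts of 14 higher and 16 lower carriers kept within 1.5 times under separate probes, incomplete probes, median centring (14 and 16), scaling, a robust fit and the fits to 6 arrays with a dye term. Leaving out a set or an array gave 8 to 15 higher and 5 to 14 lower, with 1 to 3 amino acid, 1 to 2 sugar, 0 to 2 nucleoside, 2 to 8 metal, 3 to 5 ion and 1 to 3 mitochondrial carriers past the threshold, against 4, 2, 1, 7, 4 and 4. With exact zeros kept as values 9 were higher and 7 lower (sugar 1, metal 3, ion 2). With the 3 Cy5-treated arrays alone, 5 and 5 passed (amino acid 2, sugar 1, nucleoside 0, metal 2, ion 1, mitochondrial 1), and with the 3 Cy3-treated arrays alone, 9 and 4 (amino acid 2, sugar 1, metal 3, ion 2, mitochondrial 1). Against a 1.5-fold change 3 were higher and 0 lower (amino acid 1, metal 1, and sugar, nucleoside, ion and mitochondrial 0). The remaining carrier lay outside these classes. With the set as a replicate block, 34 carriers passed, 29 of them among the 30, and without it 33 did; the amino acid count was 7 in both. The cause of these differences was not tested, beyond the smaller number of arrays where some were left out.

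The medians of all carriers and of the amino acid, ion, metal and mitochondrial classes changed sign over the settings, and those of sugar and nucleoside carriers did not. Single carriers that changed sign were uncalled ones and Slc35b1, which was at 0.50 on the Cy3-treated arrays alone and ranged from -0.50 to 0.14 with a set or array left out. On the Cy3-treated arrays alone Slc16a1 was at 0.10, Slc1a5 at -0.092, Slc29a1 at 0.065, Slc37a3 at -0.018, Slc7a5 at -0.15 and Slc9a3 at 0.12. On the Cy5-treated arrays alone Slc20a2 was at 0.15 and Slc39a8 at 0.089. Scaling the arrays put Slc39a8 at 0.012. With a set or array left out, Slc16a1 ranged from -0.095 to 0.032, Slc20a2 from -0.098 to 0.043, Slc29a1 from -0.061 to 0.017, Slc39a8 from -0.11 to 0.085, Slc4a8 from -0.029 to 0.30, Slc7a1 from -0.17 to 0.037 and Slc7a5 from -0.010 to 0.18.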

Other observations

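Other transporters of the same cells were counted beside the solute carriers. Of 28 ABC transporters, which pump substrates with ATP, 1 was higher and 2 were lower, with a median of -0.02. That is 10.7%, against 14.8% of all features. Abcc1, an exporter of glutathione conjugates and leukotrienes, rose by 0.25 ± 0.05 (n = 3 sets, limma adjusted p = 0.0167). Abcg1, which exports cholesterol, fell by 0.50 ± 0.06 (limma adjusted p = 0.0013), with every array below 0. Abcd4, a lysosomal carrier of vitamin B12, fell by 0.21 ± 0.09 (limma adjusted p = 0.0464) with 5 of 6 arrays below 0. Of 24 pumps for sodium, calcium and protons, 0 passed. Of 7 aquaporins, 1 passed (14.3%). It was the glycerol and water channel Aqp9, which rose by 0.47 ± 0.32 (limma adjusted p = 0.0453). Its Cy3-treated array of set 2 was at -0.28 and the other arrays were above 0.

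Of 13 genes of pH control, 3 were higher and 0 lower (23.1%, against 14.8% of all features). The carbonic anhydrases Car13 and Car2, which interconvert carbon dioxide and bicarbonate, rose by 0.63 ± 0.10 and 0.23 ± 0.03 (limma adjusted p = 0.000851 and 0.0194). Clic4, a chloride channel protein, rose by 0.44 ± 0.16 (limma adjusted p = 0.00862). Next to Slc1a4, Sertad2 rose by 0.51 ± 0.06 (limma adjusted p = 0.00115) while Slc1a4 fell, and next to Slc30a1, Nek2 fell by 0.20 ± 0.05 (limma adjusted p = 0.0386).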
